A study of Mus musculus with 4 samples.

Results

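Fibroblast progenitors that carried transcripts of Pi16, Dpp4 or both made up 715 of 21483 barcodes in single-cell libraries of sorted bone stromal cells from mouse models of myelodysplastic syndrome (MDS) and their wild-type controls. A barcode was kept with at least 2000 unique molecular identifiers (UMIs, each standing for 1 captured transcript), at least 500 genes and no more than 10% mitochondrial UMIs. Members were chosen by their measured UMIs of 4 genes: a barcode was taken where Pi16 and Dpp4 together reached 5 UMIs per 10000 of its UMIs, with at least 2 UMIs of these genes, and where the synovial-lining genes Clic5 and F13a1 together stayed under 8 per 10000. The members numbered 358 of 5766 barcodes in NHD13Tg, 266 of 4973 in WT_A1, 75 of 5586 in Abcg2-MDS/AML and 16 of 5158 in Control. They were set beside 3227 Pi16-negative fibroblasts, which had no UMI of Pi16 or Dpp4, at least 5 UMIs of Col14a1 and Dpt per 10000 with at least 2 UMIs, and Clic5 and F13a1 under 8 per 10000.

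PI16, a secreted or membrane-anchored peptidase-inhibitor-family protein, and DPP4, a cell-surface dipeptidyl peptidase also known as CD26, mark fibroblasts of the adventitia around vessels and of the connective tissue sheets that wrap organs. In mouse fat and skin such cells also carry CD34, and in transplantation and lineage studies they gave rise to other fibroblasts and to preadipocytes. They are known for elastic microfibril and hyaluronan genes, for complement and chemokine transcripts, and for low expression of genes of committed lineages. Bone is wrapped by periosteum and joined by tendon and joint capsule, so crushed bone can hold such cells beside marrow stroma.

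All libraries came from C57BL/6 mice, and each group was 1 library. NHD13Tg was labelled with the genotype NHD13Tg, the Nup98-HoxD13 fusion transgene, and its control WT_A1 was wild type. Abcg2-MDS/AML carried that genotype label, and its wild-type control was the library named Control. The labels give no age, sex, number of animals, or promoter of the transgene, and do not say how Abcg2 was used in the Abcg2 model. In the NHD13 mouse line as generally used, the transgene is driven by Vav1 elements that act in blood cells. The cells came from crushed, collagenase-digested femora and tibiae and were sorted as positive for CD140a and CD51 and negative for TER119, CD31 and CD45, then counted at the ends of their transcripts with droplet chemistry.

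The libraries held 38763489, 37368880, 36133716 and 46033790 UMIs in NHD13Tg, WT_A1, Abcg2-MDS/AML and Control, of which the members took 2186667, 1490439, 359345 and 69103 UMIs. Members had medians of 5651, 5008.5, 3970 and 3484.5 UMIs per cell in NHD13Tg, WT_A1, Abcg2-MDS/AML and Control, and Pi16-negative fibroblasts had medians of 5395.5, 5700, 3847.5 and 3825. Control therefore weighed little: its 16 members gave fewer UMIs than any other library's. Between 6 and 14 barcode sequences were shared by each pair of libraries, and none of them was a member in both. Xist had 0, 0, 287 and 99 UMIs in the members of NHD13Tg, WT_A1, Abcg2-MDS/AML and Control, and Ddx3y, on the Y chromosome, 254, 162, 0 and 0, so the pairs differed in sex while each model had its control's. Differences between the NHD13 pair and the Abcg2 pair therefore cannot be told apart from sex or experiment. With 1 library per group there was no replicate check within a pair, and intervals, exact at the 95% level, cover counting error only. No doublet caller was run. 1 NHD13Tg member with granulocyte genes and 1 WT_A1 member with haemoglobin genes stood apart, and each result that rests on them is given with and without them.

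Members were more frequent in each model library than in its control, and far more frequent in the NHD13 pair than in the Abcg2 pair. They made up 6.21% (5.60 to 6.86) of barcodes in NHD13Tg, against 5.35% (4.74 to 6.01) in WT_A1. They made up 1.34% (1.06 to 1.68) of barcodes in Abcg2-MDS/AML, against 0.310% (0.177 to 0.503) in Control. The intervals overlapped in the NHD13 pair and did not overlap in the Abcg2 pair. Set against the fibroblasts alone, members were 24.7% (22.5 to 27.0) of members and Pi16-negative fibroblasts together in NHD13Tg, against 16.8% (14.96 to 18.7) in WT_A1. The same share was 11.7% (9.29 to 14.4) in Abcg2-MDS/AML, against 6.13% (3.54 to 9.76) in Control. On that denominator the intervals of the NHD13 pair did not overlap and those of the Abcg2 pair overlapped slightly.

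**Figure D1:**
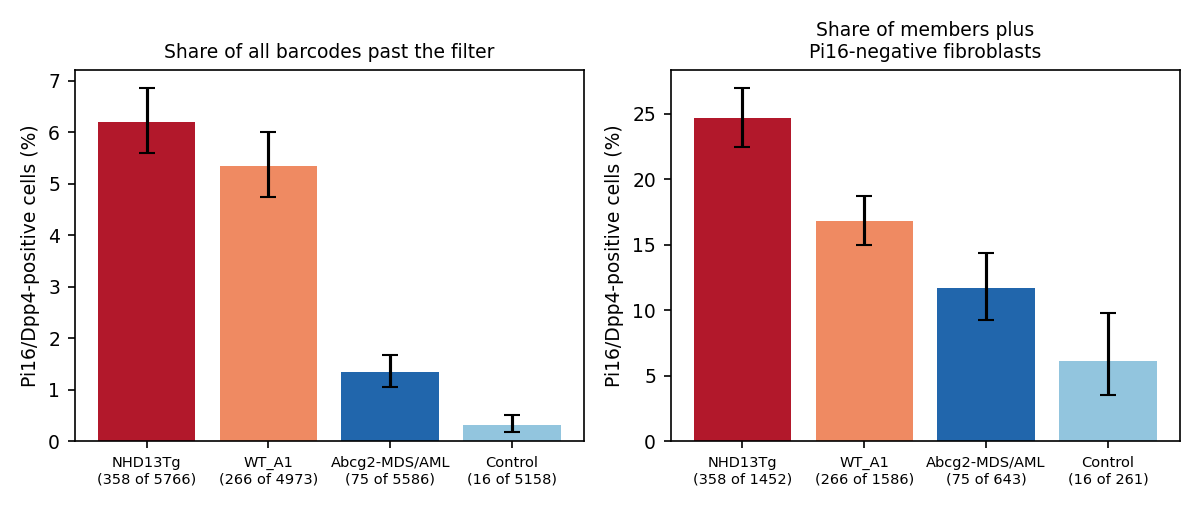
Share of Pi16/Dpp4-positive members (percent) among all barcodes past the filter and among members plus Pi16-negative fibroblasts, by library, with exact 95% binomial intervals that cover counting error only. NHD13Tg and WT_A1 stand at 6.21% and 5.35% of barcodes, and Abcg2-MDS/AML and Control at 1.34% and 0.310%.

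The makeup of the sort differed alongside these shares. Barcodes high in chondrocyte genes numbered 20, 21, 835 and 1234 in NHD13Tg, WT_A1, Abcg2-MDS/AML and Control. Barcodes positive for the marrow reticular genes Adipoq or Lepr, and without a UMI of Pi16 or Dpp4, numbered 2042, 820, 409 and 503. With blood and chondrocyte barcodes left out of the denominator, members made up 6.23, 5.39, 1.58 and 0.411% in NHD13Tg, WT_A1, Abcg2-MDS/AML and Control. Depth was evened by thinning each barcode to 2000 UMIs, and the shares were then 4.93, 4.12, 0.949 and 0.233% in NHD13Tg, WT_A1, Abcg2-MDS/AML and Control. The order of the libraries was the same under each of these counts. How far dissection, sort or genotype set the shares was not tested, because each group had 1 library.

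Barcodes of other classes passed the rule on Pi16 and Dpp4 at low or poorly bounded shares. Among chondrocyte-gene-high barcodes, which should lack Pi16 and Dpp4, 0 of 835 in Abcg2-MDS/AML and 0 of 1234 in Control passed the rule on these genes, although their median depth was 10935 and 6985.5 UMIs. These counts allow shares of up to 0.441% and 0.298% (exact binomial upper bounds). The NHD13 pair had few such barcodes: 1 of 20 chondrocyte-gene-high (5.0%, up to 24.9%) and 1 of 28 blood-gene-high barcodes (3.57%, up to 18.3%) passed in NHD13Tg, and 0 of 21 and 0 of 17 in WT_A1 (up to 16.1% and 19.5%). A Pi16 UMI was found in 12 of the 28 NHD13Tg blood-gene-high barcodes, whose median depth was 6096 UMIs. Adipoq/Lepr-positive barcodes, here counted with or without UMIs of Pi16 and Dpp4, numbered 2108, 881, 425 and 507. Of these, 0.949, 1.93, 1.41 and 0% passed in NHD13Tg, WT_A1, Abcg2-MDS/AML and Control. Among Clic5/F13a1-positive barcodes, 2 of 224 passed in NHD13Tg (0.893%, up to 3.19%) and 3 of 388 in WT_A1 (0.773%, up to 2.24%). In Abcg2-MDS/AML 0 of 80 passed and in Control 0 of 93 (up to 4.51% and 3.89%), bounds above their member shares. The member shares of NHD13Tg and WT_A1 lay above their Adipoq/Lepr shares and their Clic5/F13a1 bounds, but within the bounds of their chondrocyte and blood barcodes. That of Abcg2-MDS/AML lay above its chondrocyte bound and close to its Adipoq/Lepr share, and that of Control lay close to its chondrocyte bound. The part of free RNA in the member counts was not tested.

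Pi16 was the gene that chose most members. Of the 358 NHD13Tg members, 124 had UMIs of both genes, 215 of Pi16 alone and 19 of Dpp4 alone. The 266 WT_A1 members divided into 70, 176 and 20 in the same sense, the 75 Abcg2-MDS/AML members into 17, 50 and 8, and the 16 Control members into 4, 9 and 3. Pi16 and Dpp4 together had a median of 14.7, 11.8, 8.64 and 9.29 UMIs per 10000 in the members of NHD13Tg, WT_A1, Abcg2-MDS/AML and Control, values that the rule used and that carry no test. Many members lay near the threshold: 74, 61, 23 and 3 members of NHD13Tg, WT_A1, Abcg2-MDS/AML and Control stood at 5 to 7 per 10000, and 124, 148, 80 and 20 other barcodes stood just outside, at 3 to 5 per 10000.

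The markers that did not enter the rule were present in the members of every library. Cd34, a sialomucin of stem and adventitial cells, had 829, 861, 217 and 709 CPM in the members of NHD13Tg, WT_A1, Abcg2-MDS/AML and Control, against 253, 253, 84.9 and 232 CPM in the Pi16-negative fibroblasts of the same libraries. Procr, the endothelial protein C receptor gene, had 456, 327, 456 and 318 CPM in the members of NHD13Tg, WT_A1, Abcg2-MDS/AML and Control, against 77.0, 69.0, 134 and 26.7 CPM in the Pi16-negative fibroblasts of the same libraries. In both genes every member value lay above the Pi16-negative value of its own library. Cd248, which encodes endosialin, had 363, 337, 80.7 and 362 CPM in the members of NHD13Tg, WT_A1, Abcg2-MDS/AML and Control, against 70.1, 89.3, 19.7 and 94.0 CPM in the Pi16-negative fibroblasts of the same libraries. Clec3b, which encodes the plasminogen-binding protein tetranectin, had 1646, 2018, 676 and 2460.1 CPM in the members of NHD13Tg, WT_A1, Abcg2-MDS/AML and Control, against 687, 714, 223 and 723 CPM in the Pi16-negative fibroblasts of the same libraries. The members of Abcg2-MDS/AML had the lowest level of Cd34, Cd248 and Clec3b and the Pi16-negative fibroblasts of that library were also the lowest in these genes, whereas Procr was as high in them as in NHD13Tg. Clic5/F13a1-positive synovial-lining cells had 282, 257, 392 and 84.3 CPM of Procr in NHD13Tg, WT_A1, Abcg2-MDS/AML and Control. Their Cd248 stood at 124, 116, 43.6 and 33.4 CPM in the same order. Cd34 and Clec3b were lower there, at 12.7 to 60.3 and 19.1 to 61.8 CPM. The 4 remaining markers of the label were thus higher in members than in Pi16-negative fibroblasts of all 4 libraries, but Procr and Cd248 were not particular to members.

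**Figure D2:**
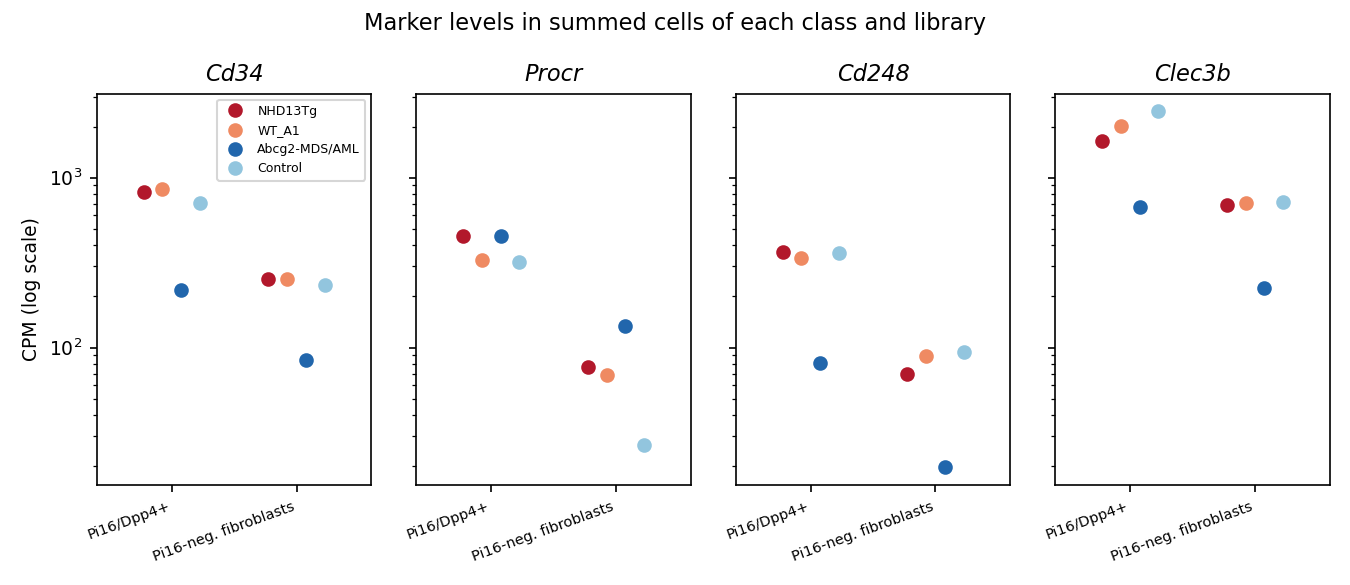
Levels of Cd34, Procr, Cd248 and Clec3b (CPM, UMIs per 1000000 summed UMIs) in members and in Pi16-negative fibroblasts, by library, on a log scale. In each of the 4 libraries and each of the 4 genes the member value lies above the value of the Pi16-negative fibroblasts.

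The marker levels varied within the members. Members with UMIs of both rule genes had 591, 404, 789 and 389 CPM of Procr in NHD13Tg, WT_A1, Abcg2-MDS/AML and Control, against 375, 291, 303 and 33.3 CPM in members with Pi16 alone. For Cd34 the same split gave 1050.0, 989, 388 and 487 CPM with both genes, against 678, 796, 177 and 666 CPM with Pi16 alone. Procr was higher with both genes in all 4 libraries, and Cd34 in NHD13Tg, WT_A1 and Abcg2-MDS/AML but not in Control. Just inside the threshold Cd34 stood at 741, 714, 177 and 276 CPM in NHD13Tg, WT_A1, Abcg2-MDS/AML and Control, against 532, 546, 242 and 438 CPM just outside it. Of Cd34, Procr, Cd248 and Clec3b, all 4 were higher inside than outside in NHD13Tg, all but Procr in WT_A1, Cd248 alone in Abcg2-MDS/AML, and Procr and Clec3b in Control. These subsets hold as few as 3 cells in Control and are given without a test.

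The genes of the sort were as the labels state. Pdgfra, which encodes CD140a, had 354, 381, 520.4 and 391 CPM and Itgav, which encodes CD51, had 79.1, 75.8, 50.1 and 86.8 CPM in the members of NHD13Tg, WT_A1, Abcg2-MDS/AML and Control. Ptprc, the CD45 gene, had 2, 0, 0 and 0 UMIs, and Pecam1, the CD31 gene, had 8, 2, 0 and 0 UMIs. Of the model genes, Hoxd13 had 0 UMIs in the members of all 4 libraries, and Nup98 had 14.6, 7.38, 16.7 and 14.5 CPM. Abcg2 had 13.3, 14.8, 5.57 and 14.5 CPM, which rests on 2 UMIs in Abcg2-MDS/AML and 1 in Control. Whether the fusion transcript would be counted under the mouse genes is not given in the sources used here, so these genes do not check the genotypes.

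Some members also held transcripts of neighbouring cell types. At least 10 per 10000 and 3 UMIs of the tendon genes Tnmd and Thbs4 were found in 20 of 358 members in NHD13Tg, 24 of 266 in WT_A1, 6 of 75 in Abcg2-MDS/AML and 2 of 16 in Control. The same threshold for the osteolineage genes Bglap and Ibsp was passed by 5, 5, 0 and 0 members of NHD13Tg, WT_A1, Abcg2-MDS/AML and Control, and for the chondrocyte genes Col2a1, Acan and Matn3 by 1, 1, 0 and 2. Over the whole marker lists, the summed level of 13 tendon genes was 6394, 7789.6, 7333 and 6859 CPM in the members of NHD13Tg, WT_A1, Abcg2-MDS/AML and Control, against 6198, 6007, 6269.9 and 6619.6 CPM in Pi16-negative fibroblasts. That of 10 endothelial genes was 26.1, 26.8, 33.4 and 14.5 CPM in members, against 26.0, 29.2, 26.1 and 30.4 CPM. Summed tendon gene levels were thus alike in both classes, and endothelial genes were close to 0. The sum does not speak for each gene: in the fit described below, 7 of 12 tested tendon genes were lower in members and 1 was higher. Leaving out the 30, 33, 7 and 4 members of NHD13Tg, WT_A1, Abcg2-MDS/AML and Control that passed a threshold for any other class is one of the alternatives reported beside the results.

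Which genes set Pi16/Dpp4-positive cells apart from other fibroblasts of the same bones was asked across all genes. UMIs were summed per library and class, and the 8 sums were fitted with edgeR's quasi-likelihood test with the library as a block, leaving out the 6 genes that define the classes. The 4 libraries were the replicates, so the p-values measure how the difference between the classes varied over these libraries. Nothing says how many animals each library holds. Of 9206 genes tested, 501 (5.44%) rose in members and 482 (5.24%) fell at a Benjamini-Hochberg adjusted p under 0.05, and 210 and 227 of these were at least 2-fold. Of the 983 called genes 755 (76.8%) had the same sign in all 4 libraries, as did 2398 (26.0%) of all tested genes. The counts were smaller without either library of the NHD13 pair. Without NHD13Tg 233 rose and 207 fell, without WT_A1 288 and 314, without Abcg2-MDS/AML 603 and 609, and without Control 479 and 498. DESeq2 called 279 and 251, and 444 and 439 genes were called after doublet-like cells were left out of both classes, of which 424 and 385 were among those called with all cells.

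Genes of adventitial fibroblasts rose together in the members. Of 35 tested genes of the adventitial progenitor list, 29 rose and 2 fell, with a median log2 difference of 1.32, against -0.0033 over all tested genes. The list was written with earlier results of these data known and holds the markers of the label, so its direction is a description. Efhd1, a calcium-binding mitochondrial protein gene, had 133, 115, 27.8 and 130.2 CPM in the members of NHD13Tg, WT_A1, Abcg2-MDS/AML and Control, against 13.1, 11.5, 1.97 and 11.1 CPM in the Pi16-negative fibroblasts of the same libraries (log2 difference 3.33 ± 0.16 (SE), adjusted p = 3.86e-13). Cd55, which encodes a complement decay-accelerating factor, had 411, 486, 175 and 478 CPM in the members of NHD13Tg, WT_A1, Abcg2-MDS/AML and Control, against 63.6, 59.5, 38.3 and 72.8 CPM in the Pi16-negative fibroblasts of the same libraries (log2 difference 2.66 ± 0.14 (SE), adjusted p = 2.19e-12). In both genes even the lowest member value, that of Abcg2-MDS/AML, stood above every Pi16-negative value. Sema3c, a secreted semaphorin gene, had 106 to 434 CPM in members, against 41.5 to 94.9 CPM in Pi16-negative fibroblasts (log2 difference 2.12 ± 0.15 (SE), adjusted p = 2.53e-10). Cd55 and Sema3c were also found in Clic5/F13a1-positive synovial-lining cells, which had 618, 646, 434 and 151 CPM of Cd55 and 308, 384, 273 and 121 CPM of Sema3c in NHD13Tg, WT_A1, Abcg2-MDS/AML and Control. Among further genes of the list, Procr rose by 2.27 ± 0.15, Cd248 by 2.05 ± 0.13, Cd34 by 1.57 ± 0.13 and Clec3b by 1.43 ± 0.11 on the log2 scale (SE). The annexin gene Anxa3 rose by 2.09 ± 0.13, the adhesion receptor gene Adgrd1 by 2.22 ± 0.13 and the proprotein convertase gene Pcsk6 by 2.08 ± 0.14. Ly6a and Ly6c1, which encode surface antigens of progenitors and endothelium, rose by 0.83 ± 0.11 and 1.03 ± 0.11. Those that fell were Nt5e, the gene of the mesenchymal surface enzyme CD73, at -1.52 ± 0.19, and the tetraspanin gene Cd9, at -0.54 ± 0.11.

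Outside that list, Thbd, Ccl8, Ifi27l2a, Akap12 and Sfrp4 were among the 15 largest increases. Thbd, which encodes thrombomodulin, the partner of the protein C receptor in protein C activation, rose by 1.87 ± 0.15 on the log2 scale, with 83.5 to 251 CPM in members, against 31.6 to 68.1 CPM in Pi16-negative fibroblasts. Ccl8, a monocyte-attracting chemokine gene, rose by 2.21 ± 0.26, with 112, 144, 312 and 14.5 CPM in the members of NHD13Tg, WT_A1, Abcg2-MDS/AML and Control, against 22.7, 12.1, 158 and 2.76 CPM in the Pi16-negative fibroblasts of the same libraries. Its UMIs were uneven: 1 cell held 114 of 244 UMIs in the NHD13Tg members and 1 held 116 of 215 in the WT_A1 members, and Control had 1 UMI. The interferon-inducible gene Ifi27l2a rose by 2.04 ± 0.13 and the kinase-anchoring protein gene Akap12 by 1.64 ± 0.18. Sfrp4, which encodes a secreted Wnt inhibitor, rose by 2.01 ± 0.17, with 1229 to 1997 CPM in members, against 224 to 502 CPM in Pi16-negative fibroblasts. The sex-linked, ribosomal and unnamed genes were left out of this ranking.

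**Figure D3:**
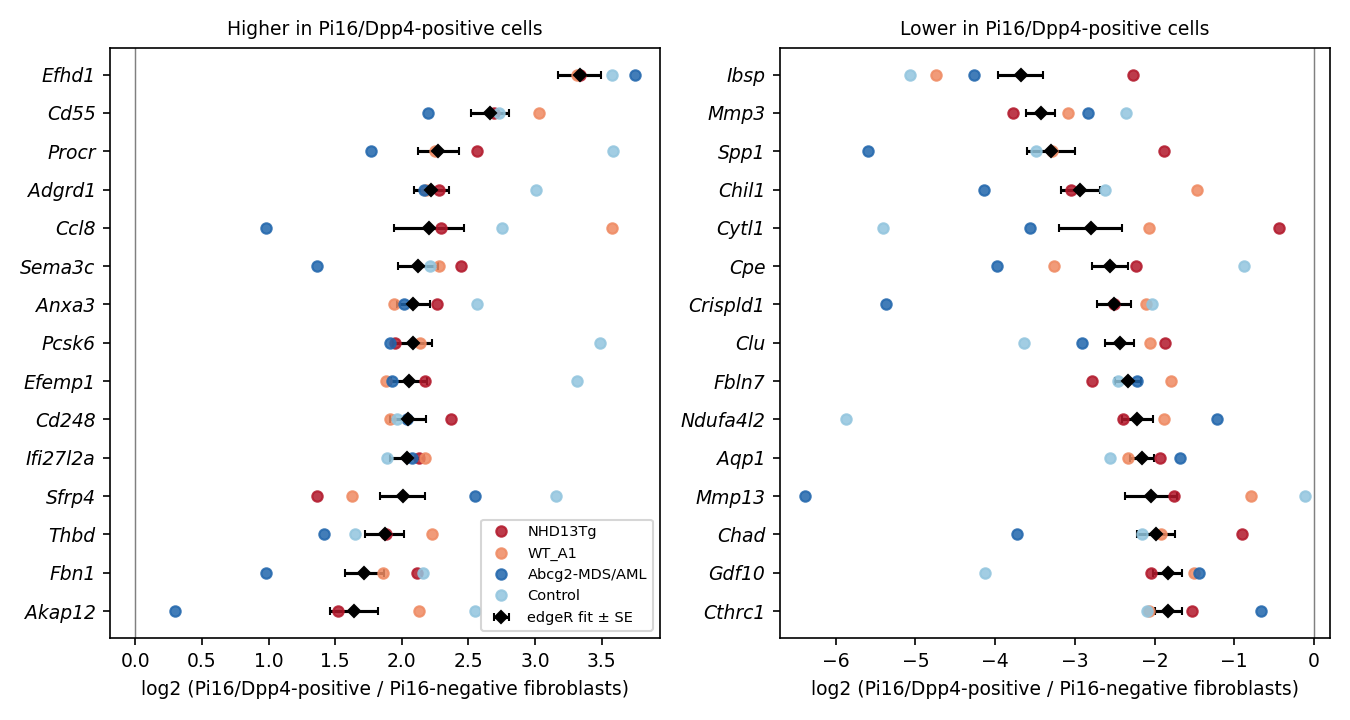
The 15 named genes with the largest increase and the 15 with the largest decrease in members against Pi16-negative fibroblasts, as log2 difference from the edgeR fit with an SE derived from its F statistic, and the per-library log2 ratios as points. Efhd1 leads the increases at 3.33 and Ibsp the decreases at -3.68, and each gene has the same sign in all 4 libraries.

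Genes of elastic fibres and their microfibrils moved mostly upwards. Of 23 tested genes, 11 rose and 4 fell (median log2 difference 0.46). Fbn1, which encodes fibrillin, the core of microfibrils, had 1016, 994, 326 and 1317 CPM in the members of NHD13Tg, WT_A1, Abcg2-MDS/AML and Control, against 235, 274, 165 and 296 CPM in the Pi16-negative fibroblasts of the same libraries (log2 difference 1.72 ± 0.15 (SE), adjusted p = 7.95e-09). The 4 member values lay above all 4 Pi16-negative values. Mfap5, a microfibril-associated glycoprotein gene, rose by 1.22 ± 0.12, with 946 to 2069 CPM in members, against 537 to 700.3 CPM in Pi16-negative fibroblasts. Efemp1, the gene of fibulin-3, rose by 2.05 ± 0.13, and Fbln2, the gene of another fibulin, by 0.46 ± 0.12. The call on Fbln2 was lost without NHD13Tg (adjusted p = 0.162) or without WT_A1 (adjusted p = 0.191). Fbln7, a fibulin gene of cartilage and tooth, fell to 43.4 to 115 CPM in members, against 278 to 545 CPM in Pi16-negative fibroblasts (log2 difference -2.33 ± 0.16 (SE), adjusted p = 2.53e-10). Emilin1, Ltbp2 and Ltbp3 also passed as lower, at -0.94 ± 0.17, -0.53 ± 0.16 and -0.44 ± 0.13, but the call on each was lost without NHD13Tg (adjusted p = 0.0513, 0.738 and 0.49), and those on Ltbp2 and Ltbp3 also without WT_A1 (adjusted p = 0.264 and 0.253).

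Hyaluronan is a long sugar polymer of soft connective tissue, made at the cell membrane from nucleotide sugars. Of 14 tested genes of its synthesis and binding, 7 rose and 3 fell (median 0.42, and 0.15 without NHD13Tg). Has1, a hyaluronan synthase gene, had 1406, 1065, 223 and 752 CPM in the members of NHD13Tg, WT_A1, Abcg2-MDS/AML and Control, against 562, 509, 92.01 and 153 CPM in the Pi16-negative fibroblasts of the same libraries (log2 difference 1.32 ± 0.13 (SE), adjusted p = 9.89e-08). Synovial-lining cells had 1158, 1237, 323 and 240.0 CPM of Has1 in NHD13Tg, WT_A1, Abcg2-MDS/AML and Control. Uap1 and Ugdh, whose enzymes make the sugar precursors, rose by 1.19 ± 0.12 and 0.95 ± 0.13, with 217 to 1178 CPM in members, against 145 to 477 CPM in Pi16-negative fibroblasts for Ugdh. Synthesis was therefore represented by both a synthase and its precursor enzymes. Tnfaip6, which encodes a hyaluronan-binding protein of inflammation, rose by 0.62 ± 0.12, a call lost without NHD13Tg (adjusted p = 0.0693). Those that fell were the hyaluronan receptor gene Cd44 (-0.45 ± 0.13), the hyaluronan-degrading Cemip (-2.60 ± 0.44) and the cartilage link protein gene Hapln1 (-1.90 ± 0.37). The call on Cd44 was lost without NHD13Tg (adjusted p = 0.0724) or WT_A1 (adjusted p = 0.298).

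Collagen genes went the other way. Of 22 tested genes for fibrillar collagens and their processing, 15 fell and 2 rose (median -0.78). Col1a1, the main collagen gene of bone and tendon, had 1238, 1598, 439.7 and 2185 CPM in the members of NHD13Tg, WT_A1, Abcg2-MDS/AML and Control, against 2522, 5051, 1069 and 3858 CPM in the Pi16-negative fibroblasts of the same libraries (log2 difference -1.30 ± 0.12 (SE), adjusted p = 3.08e-08). Col1a2 fell by 0.91 ± 0.12 and Col3a1, the collagen gene of pliable tissue, by 0.84 ± 0.12, while Serpinh1, which encodes a collagen chaperone, stood at -0.64 ± 0.12. Those that rose were Pcolce2, a procollagen C-proteinase enhancer gene (1.34 ± 0.12), and Bmp1, the gene of that proteinase (1.06 ± 0.13). The reference mattered for Col3a1, whose difference was positive at 0.88 (adjusted p = 0.124) when the members were set against all other barcodes outside the blood class. Small leucine-rich proteoglycans, which space collagen fibrils, had 8 of 12 tested genes lower and 0 higher (median -0.75). Lum, the lumican gene, fell to 812 to 986 CPM in members, against 1412 to 2661 CPM in Pi16-negative fibroblasts (log2 difference -1.34 ± 0.13 (SE), adjusted p = 5.20e-08), and Bgn and Prelp stood at -0.86 ± 0.12 and -0.64 ± 0.14.

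The list of F3-high regulatory stroma, genes of a stromal subset that in mouse fat restrains adipocyte formation, had 7 of 13 tested genes lower and none higher (median -0.53). Besides Bgn, it held the matrix mineralization inhibitor gene Mgp (-0.86 ± 0.20), the chemokine gene Cxcl12 (-0.74 ± 0.20) and the growth factor gene Gas6 (-0.53 ± 0.14). These are weaker results: Mgp had the same sign in only 2 of 4 libraries and Cxcl12 in 3 of 4, both calls were lost without NHD13Tg (adjusted p = 0.099 for Mgp and 0.0616 for Cxcl12) and under DESeq2 (adjusted p = 0.111 and 0.552), and the call on Gas6 was lost without WT_A1 (adjusted p = 0.0867). Cxcl12 is also the leading gene of Adipoq/Lepr-positive marrow cells, 120, 90, 41 and 11 of which were among the Pi16-negative fibroblasts of NHD13Tg, WT_A1, Abcg2-MDS/AML and Control. With these cells left out, a setting chosen once the data were known, Cxcl12 differed by -0.63 (adjusted p = 0.0352).

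**Figure D4:**
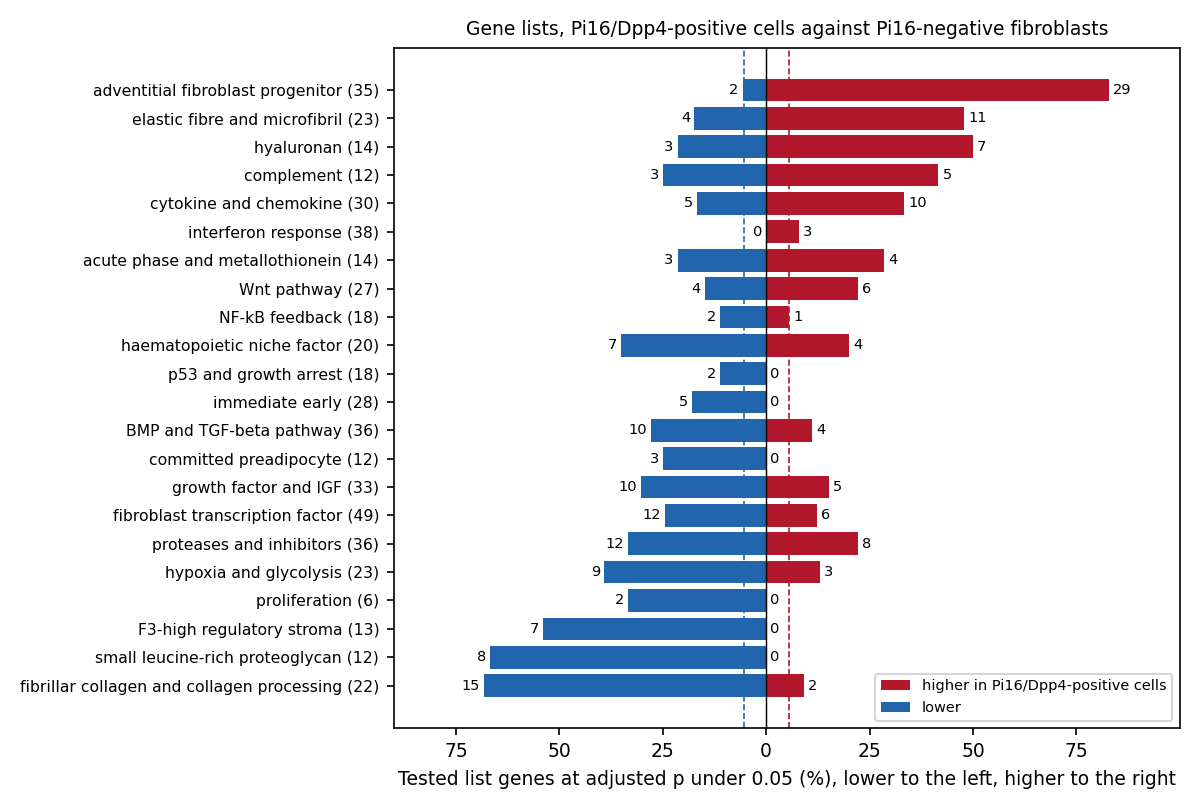
Percent of the tested genes of each list that were lower (left) or higher (right) in members than in Pi16-negative fibroblasts at an adjusted p under 0.05, with the number tested in parentheses. The adventitial list stands out on the right with 29 of 35 genes, and the collagen list on the left with 15 of 22, beside 5.44% and 5.24% of all tested genes.

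Immune mediators were mixed. Of 30 tested cytokine and chemokine genes, 10 rose and 5 fell. Ackr3, a scavenging receptor gene for CXCL12, rose by 1.30 ± 0.14, with 211 to 545 CPM in members, against 49.8 to 256 CPM in Pi16-negative fibroblasts, and 639.8, 592, 224 and 118 CPM in the synovial-lining cells of NHD13Tg, WT_A1, Abcg2-MDS/AML and Control. Ptx3, the gene of a secreted pattern recognition protein, rose by 1.15 ± 0.16 and Ptgs2, which encodes the inducible prostaglandin synthase, by 0.98 ± 0.15. Cxcl13, a B-cell-attracting chemokine gene, rose by 0.76 ± 0.21, but its call rested on NHD13Tg (adjusted p = 0.781 without it, and 0.0657 without Control). Cxcl14, a chemokine gene, fell by 1.10 ± 0.14, Tnfrsf11b, which encodes the osteoclast inhibitor osteoprotegerin, by 1.70 ± 0.18 and the prostacyclin synthase gene Ptgis by 0.81 ± 0.13. Without doublet-like cells the Ptgis call was lost (adjusted p = 0.0618).

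In the complement list 5 of 12 tested genes rose and 3 fell. C3, the central component, had 1312, 1092, 3250.4 and 608 CPM in the members of NHD13Tg, WT_A1, Abcg2-MDS/AML and Control, against 449.6, 489, 1662 and 248 CPM in the Pi16-negative fibroblasts of the same libraries (log2 difference 1.16 ± 0.12 (SE), adjusted p = 2.11e-07). The inhibitor gene Serping1 rose by 0.58 ± 0.11 and the protease gene C1s1 by 0.46 ± 0.12, a call lost without NHD13Tg (adjusted p = 0.221) or WT_A1 (adjusted p = 0.172). Clu, the clusterin gene, fell by 2.44 ± 0.19, and the collectin gene Colec12 stood at -0.79 ± 0.13. With Cd55 higher and Clu lower, complement regulators moved in both directions.

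Wnt pathway genes had 6 of 27 higher and 4 lower. Beside Sfrp4, Dact1, the gene of an intracellular Wnt antagonist, rose by 1.30 ± 0.17, and Wif1, the gene of a secreted inhibitor, fell by 1.21 ± 0.21. Dkk2, Fzd4, Dkk3, Fzd1 and Fzd8 also passed, but the call on each was lost without NHD13Tg (adjusted p between 0.0513 for Fzd8 and 0.539 for Fzd1). Of 49 tested fibroblast transcription factor genes 6 rose and 12 fell. Ebf2, known from preadipocytes, rose by 1.53 ± 0.15, with 106 to 217 CPM in members, against 45.2 to 61.2 CPM in Pi16-negative fibroblasts, Ebf1 by 0.81 ± 0.11, Creb5 by 0.61 ± 0.12 and the pluripotency-associated factor gene Klf4 by 0.38 ± 0.11. Klf4 lost its call without NHD13Tg (adjusted p = 0.206) or WT_A1 (adjusted p = 0.326). Sox9, the master factor gene of cartilage, fell by 1.33 ± 0.13, with 44.5 to 159 CPM in members, against 133 to 334 CPM in Pi16-negative fibroblasts, and the BMP target Id1 by 1.44 ± 0.14. The limb mesenchyme factor genes Twist1 (-0.47 ± 0.14) and Prrx2 (-0.78 ± 0.14) passed with all 4 libraries but not without NHD13Tg (adjusted p = 0.0842 and 0.128), and Twist1 not without WT_A1 (adjusted p = 0.072).

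The remaining lists showed fewer or divided calls. Interferon response genes had 3 higher and 0 lower of 38 tested, acute phase and metallothionein genes 4 higher and 3 lower of 14, committed preadipocyte genes 0 higher and 3 lower of 12, and BMP and TGF-beta genes 4 higher and 10 lower of 36. Growth factor and IGF genes had 5 higher and 10 lower of 33, haematopoietic niche factors 4 higher and 7 lower of 20, and proteases and their inhibitors 8 higher and 12 lower of 36. Hypoxia and glycolysis genes had 3 higher and 9 lower of 23, NF-kB feedback genes 1 higher and 2 lower of 18, immediate early genes 0 higher and 5 lower of 28, and p53 and growth arrest genes 0 higher and 2 lower of 18. Of 32 proliferation genes only 6 passed the filter on low counts, of which none rose and 2 fell. No list of these had a majority of its tested genes called in 1 direction.

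Genes known from bone, cartilage and joint lining were among the 15 largest decreases. Ibsp, a bone matrix sialoprotein gene, had 103, 34.9, 25.05 and 57.9 CPM in the members of NHD13Tg, WT_A1, Abcg2-MDS/AML and Control, against 499.7, 946, 506 and 2187 CPM in the Pi16-negative fibroblasts of the same libraries (log2 difference -3.68 ± 0.28 (SE), adjusted p = 9.56e-10). Spp1, the osteopontin gene, fell to 36.2 to 86.8 CPM in members, against 219.9 to 1812 CPM in Pi16-negative fibroblasts (log2 difference -3.30 ± 0.30 (SE), adjusted p = 1.46e-08), and Cthrc1, which encodes a secreted protein of matrix-forming osteoblasts, by 1.83 ± 0.17. The matrix metalloproteinase gene Mmp3 fell by 3.43 ± 0.18 and the chitinase-like gene Chil1 by 2.93 ± 0.24. The collagenase gene Mmp13 stood at -2.04 ± 0.33, a call that DESeq2 did not make (adjusted p = 0.356). Of the cartilage genes, Cytl1 fell by 2.80 ± 0.40 and Chad, the chondroadherin gene, by 1.98 ± 0.24. Also among the 15 stood the prohormone-processing gene Cpe (-2.56 ± 0.22), the secreted protein gene Crispld1 (-2.51 ± 0.22), the mitochondrial subunit gene Ndufa4l2 (-2.22 ± 0.20), the water channel gene Aqp1 (-2.16 ± 0.15) and the BMP-family gene Gdf10 (-1.84 ± 0.18).

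The comparison class held more transcripts of bone and cartilage genes than the members did. The summed level of 14 osteolineage genes was 349, 283, 119.7 and 289 CPM in the members of NHD13Tg, WT_A1, Abcg2-MDS/AML and Control, against 1055, 2098, 2755 and 3728 CPM in the Pi16-negative fibroblasts, and that of 17 chondrocyte genes was 5320.0, 4319.5, 5955 and 3864 CPM, against 11797, 9319, 10711 and 23422 CPM. Of the tested markers, 8 of 9 osteolineage and 9 of 14 chondrocyte genes fell, and Phex, an osteocyte gene, rose. Of 12 tested tendon genes 7 fell and 1 rose, of 10 marrow reticular genes 4 fell and of 4 mural genes 3 fell. The part of bone, cartilage and tendon cells among the Pi16-negative fibroblasts in the decreases was not tested. Without doublet-like cells 6 of these 8 osteolineage, 6 of the 9 chondrocyte and 5 of the 7 tendon genes also passed as lower. That setting removed cells by their own UMIs of genes such as Ibsp, Acan and Thbs4, so it is no independent check of these markers. All 5 tested blood genes rose, and these rested on 2 cells: 1 WT_A1 member held 97.5 to 100% of the haemoglobin UMIs of its library's members, and 1 NHD13Tg member held most of their S100a9. Without cells with blood genes, a setting chosen once the data were known, none of the 5 passed the filter on low counts, and 507 genes rose and 498 fell, 495 and 481 of them among those called with all cells.

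The NHD13 pair asked whether the members differed between the Nup98-HoxD13 transgenic and the wild-type library. UMIs were summed over members, and printed log2 ratios have 0.5 added to each count. A gene was counted as different where its CPM was at least 2-fold apart and the counting interval of the ratio left out 1. Where 1 library had 0 UMIs, the size was the bound with 3 counts in place of 0. This is a rule of size and not a test. Of 5855 genes with at least 20 CPM in either library, 61 (1.04%) were higher in NHD13Tg members and 93 (1.59%) lower, and the median log2 ratio of all was -0.040. The same rule in Pi16-negative fibroblasts found 18 higher (0.321%) and 51 lower (0.91%) of 5607. Of the list genes, none of 33 adventitial genes was higher and 1 was lower, and none of 21 collagen genes passed in either direction, with medians of 0.093 and -0.33. Smpd3 was thus the only adventitial gene past the rule, which does not show that each of the others lay within 2-fold. Cd34 had 829 CPM in NHD13Tg members and 861 CPM in WT_A1 members, and Clec3b had 1646 CPM in NHD13Tg members and 2018 CPM in WT_A1 members.

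Among inflammatory genes, Hp, which encodes the haemoglobin scavenger haptoglobin, had 177 CPM in NHD13Tg members and 48.3 CPM in WT_A1 members, a log2 ratio of 1.87 (interval 1.51 to 2.26). The Pi16-negative fibroblasts had 264 CPM in NHD13Tg and 73.5 CPM in WT_A1, a ratio of 1.84, so Hp differed alike in both classes. Barcodes of 1 to 100 UMIs, which hold free RNA, had 2994 CPM of Hp in NHD13Tg and 1089 CPM in WT_A1, above the members of each library, and its part in the member ratio was not tested. The cytokine gene Il6 had 292 CPM in NHD13Tg members and 138 CPM in WT_A1 members (1.08 (interval 0.85 to 1.31)), and the neutrophil chemokine gene Cxcl2 had 264 CPM in NHD13Tg members and 108 CPM in WT_A1 members (1.29 (interval 1.03 to 1.55)). In Pi16-negative fibroblasts these ratios were 0.60 and -0.17, under 2-fold in both. Penk, the proenkephalin gene, had 324 CPM in NHD13Tg members and 132 CPM in WT_A1 members (1.30 (interval 1.07 to 1.54)), against a ratio of 0.48 in Pi16-negative fibroblasts. Cxcl13 had 71.8 CPM in NHD13Tg members and 22.8 CPM in WT_A1 members (1.64 (interval 1.11 to 2.23)), with UMIs in 11 of 358 NHD13Tg members and 11 of 266 WT_A1 members, and 1 NHD13Tg member held 57 of 157 UMIs. Its ratio was -0.37 in Pi16-negative fibroblasts, and in members it fell short of the rule when cells were thinned to 2000 UMIs (0.87). Il18, the complement gene Cfb and the interferon-inducible Usp18 were also higher, at 1.19, 1.67 and 1.504. Il18 fell short of 2-fold at 4000 UMIs (0.94) and when thinned (0.88), and Usp18 when thinned (0.82). Il6 fell short of 2-fold under the stricter member rule (0.95). Of the described lists, 4 of 24 cytokine, 1 of 11 complement, 3 of 14 acute phase and 1 of 24 interferon response genes were higher, and 1, 0, 0 and 1 lower. Over all genes considered, 1.04% were higher and 1.59% lower. Without the cell with most UMIs of each gene, 4 cytokine genes were higher and 3 lower. The acute phase genes were Hp, Saa3 and Serpina3m. Serpina3m fell short of 2-fold under the stricter rule (0.33), at 4000 UMIs (0.97), without doublet-like cells (0.96) and when thinned (0.54).

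Some other large ratios rested on single cells, and the granulocyte and haemoglobin genes among them were picked after their values had been seen. Stfa1, S100a9 and S100a8, genes of granulocytes, were high in NHD13Tg members, but 1 cell held 97.1% of the Stfa1 and 95.2% of the S100a8 UMIs. The haemoglobin genes Hbb-bs, Hbb-bt, Hba-a1 and Hba-a2 were low in NHD13Tg members only through the 1 WT_A1 cell named above. The acute phase gene Saa3 had 83 UMIs in NHD13Tg members and 0 in WT_A1 members, of which 1 cell held 78.3%. Without the cell with most UMIs of each gene, also a setting chosen once the data were known, these genes no longer passed the rule, and Ifit1 did not pass either. Over all genes, 52 were higher and 74 lower in that setting, against 61 and 93 with all cells. Saa3 fell under the minimum of 20 CPM there, while its log2 ratio was 4.66. Ratios that did pass without such a cell included the AP-1 gene Fosl1 (97.0 CPM in NHD13Tg members and 32.9 CPM in WT_A1 members), the cell cycle gene Cdk2ap1 (50.3 CPM in NHD13Tg members and 20.1 CPM in WT_A1 members), the prostaglandin transporter gene Slco2a1 (77.7 CPM in NHD13Tg members and 31.5 CPM in WT_A1 members), the homeobox gene Barx1 (52.1 CPM in NHD13Tg members and 22.8 CPM in WT_A1 members) and the secreted protein gene Lgi2 (56.2 CPM in NHD13Tg members and 22.8 CPM in WT_A1 members). Cdk2ap1 and Barx1 fell short of 2-fold under the stricter member rule (0.93 and 0.75). The elastin gene Eln, at 1.31, did not pass without its top cell.

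Mrgprg, which encodes an orphan receptor of the Mas-related family otherwise known from sensory neurons, was the largest decrease. It had 0 UMIs in NHD13Tg members and 181 UMIs in WT_A1 members. With 3 counts in place of 0, the level was at least 88.5-fold lower in NHD13Tg members. In WT_A1 the UMIs came from 17 of 266 members, 33 of them from 1 cell. None of 358 NHD13Tg members had a UMI, which allows a share of up to 1.03% of members with one (exact binomial upper bound). Pi16-negative fibroblasts had 0 UMIs in all 4 libraries, and the 3387 remaining WT_A1 barcodes had 8 UMIs in 3 cells. Abcg2-MDS/AML members had 1 UMI and Control members had none. In these libraries Mrgprg was thus found almost solely in WT_A1 members, and no replicate shows whether that belongs to the genotype.

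Daglb, a diacylglycerol lipase gene, had 26.1 CPM in NHD13Tg members and 156 CPM in WT_A1 members (-2.57 (interval -3.03 to -2.16)), whereas in Pi16-negative fibroblasts it had 15.8 CPM in NHD13Tg and 15.4 CPM in WT_A1. Smpd3, a sphingomyelinase gene of the adventitial list, had 33.8 CPM in NHD13Tg members and 109 CPM in WT_A1 members (-1.68 (interval -2.10 to -1.28)). In Pi16-negative fibroblasts the ratio of Smpd3 was -0.084. Bloc1s1, a lysosome-related gene, and Grcc10 were lower in both classes, at -1.94 and -1.63 in members and -1.85 and -1.75 in Pi16-negative fibroblasts. The epidermal secreted protein gene Dmkn, the parathyroid-hormone-like gene Pthlh and the isoprenoid gene Fdps stood at -1.38, -1.32 and -1.31. Dmkn did not pass without its top cell (-0.82).

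Several tendon genes were lower in NHD13Tg members. Thbs4, which encodes a tendon thrombospondin, had 199 CPM in NHD13Tg members and 694 CPM in WT_A1 members (-1.80 (interval -1.97 to -1.64)), and Postn, the periostin gene, picked after its value had been seen, had 47.6 CPM in NHD13Tg members and 201 CPM in WT_A1 members (-2.07 (interval -2.41 to -1.75)). Fmod, Tnmd and Scx, tendon matrix and transcription factor genes, were at -1.08, -3.03 and -2.64. In all, 4 of 9 tendon genes were lower. The share of members passing the tendon gene threshold was 5.59% in NHD13Tg and 9.02% in WT_A1, and 45 of 358 NHD13Tg members had a UMI of Thbs4, against 67 of 266 WT_A1 members. In summed UMIs, fewer cells of a type and less RNA per cell cannot be told apart. Free RNA of Thbs4 and Postn stood at 882 and 228 CPM in WT_A1 barcodes of 1 to 100 UMIs, above the members, as did that of Fmod and Scx. Without doublet-like cells Tnmd and Scx did not pass, Scx through the minimum of 20 CPM. That setting removed members by their own UMIs of Tnmd and Thbs4, so it cannot decide on these genes. The part of tendon cells and free RNA in these ratios was not tested. The prostaglandin synthase gene Ptges was lower at -1.09.

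The Abcg2 pair rested on 75 members in Abcg2-MDS/AML and 16 in Control. Of 6415 genes considered, 144 (2.24%) were higher in Abcg2-MDS/AML members and 549 (8.56%) lower, and the median log2 ratio was -0.45. The split depended on scaling: the TMM factors of the libraries differed by -0.47 (log2), and scaling by them gave 402 higher and 269 lower. Leaving out, gene by gene, the cell with most UMIs gave 178 higher and 267 lower. In Pi16-negative fibroblasts of the same libraries 398 (6.6%) of 6027 genes were higher and 857 (14.2%) lower. Ratios in the Abcg2 pair are thus given beside this shift, and the largest are bounds against a count of 0.

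Acute phase and metallothionein genes were higher in Abcg2-MDS/AML members, 8 of 12 with none lower, at a median of 2.10, and with TMM scaling the count was also 8 and 0. In Pi16-negative fibroblasts 11 of the same genes were higher. Mt1 and Mt2, which encode metal-binding metallothioneins, had 2.28 (interval 2.08 to 2.50) and 1.91 (interval 1.61 to 2.24) as log2 ratios, with 14209 CPM in Abcg2-MDS/AML members and 2909 CPM in Control members for Mt1. Serpina3n, a protease inhibitor gene of the acute phase, had 453 UMIs in Abcg2-MDS/AML members and 3 in Control members, or 1261 CPM in Abcg2-MDS/AML members and 43.4 CPM in Control members (4.64 (interval 3.30 to 7.14)). The complement genes C3 and C4b were higher too, at 2.40 (interval 1.98 to 2.90) and 1.73 (interval 1.19 to 2.37), and Serping1 at 1.21 (interval 0.91 to 1.53). In the complement list 4 of 9 genes were higher and Cd55 was lower (-1.46, and -0.99 with TMM scaling).

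Several chemokine genes were higher in the same members. Cxcl12 had 536 UMIs in 54 of 75 Abcg2-MDS/AML members and 4 UMIs in 4 of 16 Control members, or 1492 CPM in Abcg2-MDS/AML members and 57.9 CPM in Control members (4.52 (interval 3.32 to 6.57)). Pi16-negative fibroblasts differed in Cxcl12 by 1.21. Cxcl13 had 313 UMIs in 11 of 75 Abcg2-MDS/AML members, 124 of them in 1 cell, and none in Control members, at least 20.1-fold higher with 3 counts in place of 0. In Pi16-negative fibroblasts Cxcl13 had 1508 UMIs in 55 of 568 cells in Abcg2-MDS/AML and 0 in 245 cells in Control. Cxcl14 and the monocyte chemokine genes Ccl8 and Ccl7 were at 1.99 (interval 0.94 to 3.57), 3.85 (interval 1.92 to 9.75) and 3.85 (interval 1.92 to 9.75), with 1 Control UMI each of Ccl8 and Ccl7. In all, 7 of 20 cytokine genes were higher and 1, Ptgis, lower.

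Among genes without a Control UMI, Dpep1, a dipeptidase gene, had 131 UMIs in Abcg2-MDS/AML members, Inmt, a methyltransferase gene, 124, the kinase gene Pdk4 44 and the calcium sensor gene Stim1 34. Their levels were at least 8.40-fold, 7.95-fold, 2.82-fold and 2.18-fold higher. Stim1 did not pass without doublet-like cells or without its top cell. Angptl7, an angiopoietin-like gene of tendon and cartilage, had 1631 CPM in Abcg2-MDS/AML members and 57.9 CPM in Control members. A count of 0 in 69103 Control UMIs leaves low levels in Control members undetected at this depth.

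Some genes of the adventitial list were lower in Abcg2-MDS/AML members. Of 31 adventitial genes considered, none was higher and 14 were lower, at a median of -0.98; with TMM scaling 1 was higher and 8 lower at a median of -0.51, and in Pi16-negative fibroblasts 2 were higher and 8 lower. Clec3b had 676 CPM in Abcg2-MDS/AML members and 2460.1 CPM in Control members (-1.86 (interval -2.15 to -1.57)), Cd34 had 217 CPM in Abcg2-MDS/AML members and 709 CPM in Control members (-1.71 (interval -2.24 to -1.16)) and Cd248 had 80.7 CPM in Abcg2-MDS/AML members and 362 CPM in Control members (-2.17 (interval -2.99 to -1.33)). These ratios stayed past 2-fold with TMM scaling, at -1.39, -1.24 and -1.70. Igfbp6, an IGF-binding protein gene of adventitia, Mfap5 and Cd9 did not, at -0.72, -0.66 and -0.56. Procr ran against this trend, with 456 CPM in Abcg2-MDS/AML members and 318 CPM in Control members (0.49 (interval -0.13 to 1.23)), though its interval took in a ratio of 1.

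Many collagen genes were lower as well, 10 of 22 with none higher (median -1.66), 10 with TMM scaling and 13 in Pi16-negative fibroblasts. Col1a1 had 439.7 CPM in Abcg2-MDS/AML members and 2185 CPM in Control members (-2.31 (interval -2.64 to -1.98)). Col3a1, Serpinh1 and Col6a1 stood at -2.04, -2.62 and -1.496. Col3a1 fell short of the rule under the stricter member rule (-0.42), which left 7 Control members. Interferon genes went both ways, with Ifi204 higher (1.11) and Bst2 and Ifi27 lower (-1.98 and -1.58) of 24 considered. Several of the lowest ratios rested on few UMIs in Control: Tnmd had 0 UMIs in Abcg2-MDS/AML members and 11 in Control members, and Notum and F13a1 had 6 UMIs each in a single Control cell. Scx, Pthlh, Triap1, Engase, Ptx4 and Rnf41 had 0 to 2 UMIs in Abcg2-MDS/AML members and 5 to 17 in Control members, and Scx and Ptx4 did not pass without the cell with most of their UMIs. In the marker lists 9 of 15 chondrocyte and 7 of 10 tendon genes passed as lower, but 4 and 3 without the cell with most UMIs of each gene, and 8 and 4 with TMM scaling. The tendon gene Thbs4, lower by the rule (-1.46), had no Control UMI left without doublet-like cells, where the interval of its ratio takes in 1. Thbs4 UMIs are themselves part of what marks such cells.

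Some genes passed the rule in both pairs. Of 5299 genes considered in both, 37 passed the rule in both, which is 37% of the 100 genes called in the NHD13 pair and 6.15% of the 602 called in the Abcg2 pair. Of all 5299 genes 1.89% were called in the NHD13 pair and 11.4% in the Abcg2 pair. Of the 37, 4 were higher in both models, 21 lower in both and 12 opposite. Without the cell with most UMIs of each gene 3, 11 and 5 passed in the same direction as before. Of these, Cxcl13, Ifi205, an interferon-inducible gene, and Cyp2f2, a cytochrome P450 gene, were higher in both, and the fourth before that step was the predicted gene Gm10600. The 11 that were lower in both were Postn, Thbs4, Tnmd and Fmod of tendon and periosteum, the growth factor gene Ptn, the parathyroid-hormone-like gene Pthlh, the isoprenoid gene Fdps, the survival gene Triap1, and Arsi, Ccdc117 and Rnf170. Without doublet-like cells the 3 higher genes passed in both pairs, but of the 11 lower genes 2 did, Pthlh and Triap1. Ptn did not pass in the NHD13 pair, Arsi, Ccdc117, Fdps, Fmod, Postn and Thbs4 not in the Abcg2 pair, and Rnf170 and Tnmd in neither. Doublet-like cells were picked in part by their own UMIs of Tnmd and Thbs4, so that setting cannot decide on these genes.

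**Figure D5:**
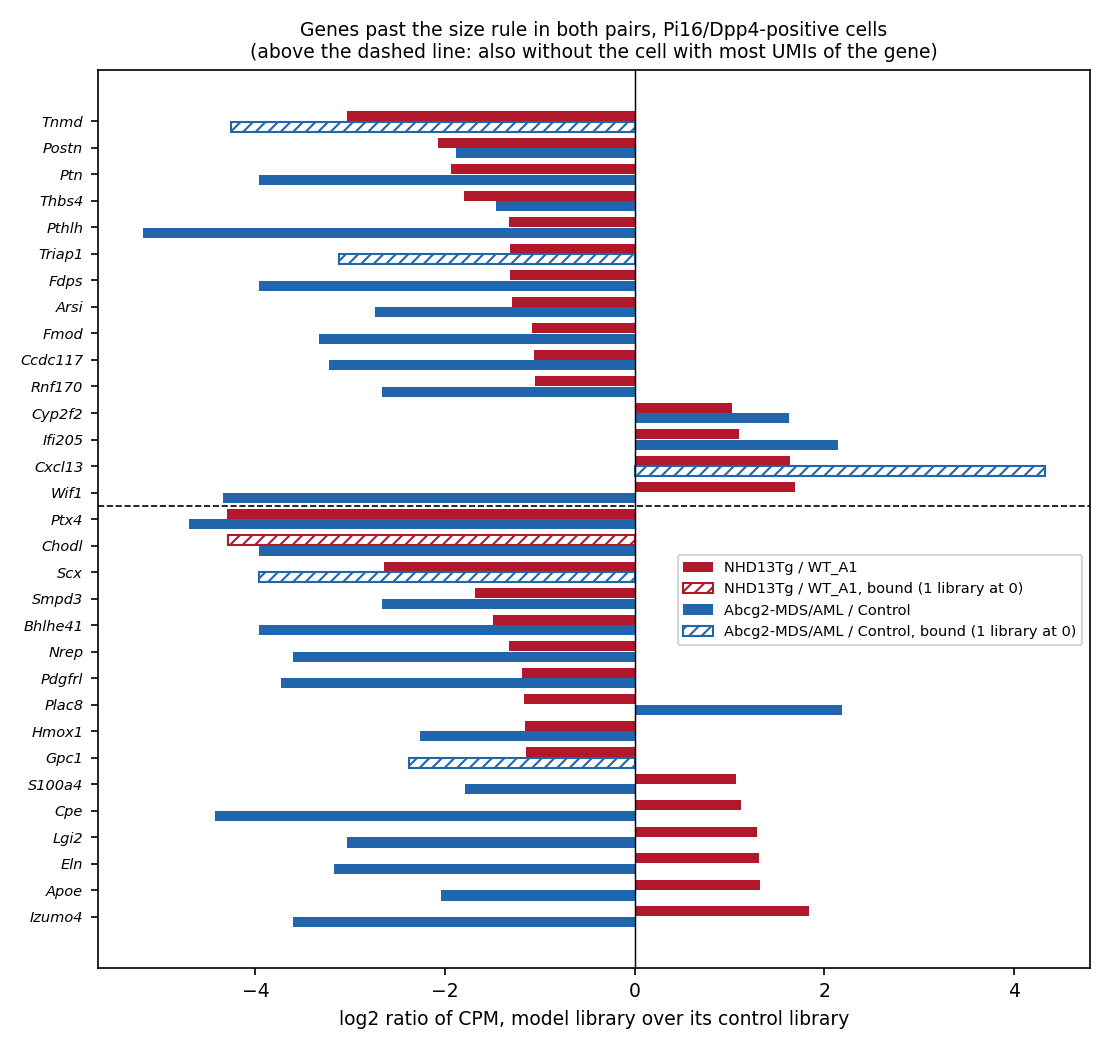
Log2 ratios of CPM, NHD13Tg over WT_A1 and Abcg2-MDS/AML over Control, for 31 of the 37 genes past the size rule in both pairs (predicted, ribosomal protein and duplicate symbols and genes not reported here left out). Hatched bars are bounds with 3 counts in place of 0, and genes above the dashed line also passed, in the same direction, without the cell with most UMIs; Cxcl13, Ifi205 and Cyp2f2 are the genes above the line that are higher in both models.

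A joint fit of both models against both controls, with the pair as a block, was the only test of a model effect, and it left 1 residual degree of freedom. Of 7795 genes tested with edgeR's quasi-likelihood test, 0 (0.0%) rose and 5 (0.0641%) fell at an adjusted p under 0.05, while 190 had an unadjusted p under 0.05, 95 in each direction. DESeq2 called 0 higher and 4 lower. Without cells with blood genes or without doublet-like cells, settings chosen once the data were known, edgeR called 0 in either direction, with 168 and 206 genes at an unadjusted p under 0.05. Of the 5, Hbb-bs, Hba-a1, Hba-a2 and Hbb-bt came from the 1 WT_A1 cell. The other was Ptx4, a pentraxin gene, with 2 UMIs in NHD13Tg members and 33 in WT_A1 members, and 1 UMI in Abcg2-MDS/AML members and 7 in Control members (log2 difference -4.53 ± 0.60 (SE), adjusted p = 0.0352, and 0.338 without cells with blood genes). 1 cell held 42.4% of the UMIs in WT_A1 and 1 held 85.7% in Control. The joint fit treats the models as one condition, so it says nothing of changes in 1 model only.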

How the data were processed

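Single-cell RNA was measured in 4 libraries, 1 per group. The deposited matrices hold raw counts of UMIs, with empty barcodes included, for 27998 genes and 6794880 barcodes. Per the submitters' processing notes the authors' tools were Seurat 3.2.3 and Cell Ranger 3.1.0. The genome build is not given in the sources used here.

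Barcode filters, the member rule and the comparison class are given with the results. Counts were summed per library and class (Python 3.11.15, numpy 2.4.6, scipy 1.17.1, pandas 2.3.3, matplotlib 3.10.9). Members were compared with Pi16-negative fibroblasts by edgeR 4.0.16 (R 4.3.3; quasi-likelihood test, TMM, filterByExpr, library as block, 3 residual degrees of freedom), and both models with both controls with the pair as block. Each SE printed with a log2 difference is the size of that difference divided by the square root of the F statistic of the test. Pi16, Dpp4, Clic5, F13a1, Col14a1 and Dpt were left out of the first fit. Genes within a pair followed a rule of size (2-fold in CPM, at least 20 CPM, and an interval leaving out a ratio of 1). A bound with 3 counts stood in for a count of 0, and printed log2 ratios have 0.5 added to each count. Alternatives were DESeq2 1.42.0, RLE scaling, other filters, member rules and references, thinning, and leaving out each library or doublet-like cells (at least 10 per 10000 and 3 UMIs of genes of another class). The fit against Pi16-negative fibroblasts and the size rule of the pairs were tried on simulated data, and the joint fit was not. The members' summed counts (69103 to 2186667 UMIs) set the precision.

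Members and the 32 gene lists (735 symbols, 5 not in the table) were chosen with earlier results of these data known, and the lists described in detail after their values had been seen. Genes with symbols used by more than 1 ID were left out of the lists and rankings. Named genes were the 15 largest changes in each direction with at least 100 CPM and the same sign in every library, the 10 largest ratios in each direction of each pair with at least 50 CPM and above the level of free RNA (barcodes of 1 to 100 UMIs), the genes of the joint fit, up to 4 genes per direction of each described list by CPM, and the genes of the label, sort and models. Mrgprg UMIs by class, the genes past the rule in both pairs, Postn and the genes of single blood cells were picked after their values had been seen. Sex-linked, mitochondrially encoded, ribosomal protein, predicted and immunoglobulin genes stayed out of the rankings. Some genes of these rules are not reported here. No sequence was used.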

Additional observations from a re-analysis of the deposited data

Results flagged for a closer look

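Effects of opposite direction in the members of the pairs stood out in 2 genes, and the difference between the pairs was not tested. Eln had a log2 ratio of 1.31 for NHD13Tg over WT_A1 and -3.17 for Abcg2-MDS/AML over Control, the second of which rests on 5 UMIs in Abcg2-MDS/AML members and 9 in Control members. Neither ratio of Eln passed the rule without the cell with most of its UMIs. Lgi2 had a log2 ratio of 1.29 for NHD13Tg over WT_A1 and -3.03 for Abcg2-MDS/AML over Control, the second of which rests on 3 UMIs in Abcg2-MDS/AML members and 5 in Control members and did not pass without such a cell. The pairs also differed in sex and experiment, which cannot be told apart from the model.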

How the results depend on the processing

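Of the genes named in each comparison, 61 of 90 in members against Pi16-negative fibroblasts, 26 of 43 in the NHD13 pair and 27 of 50 in the Abcg2 pair kept direction and call under every alternative run. Member shares moved with the rule and depth: in NHD13Tg to 7.08% (at least 4000 UMIs), 4.93% (thinned to 2000 UMIs) and 4.16% (at least 10 per 10000 and 3 UMIs of the rule genes); in WT_A1 to 4.12% (thinned), 2.94% (stricter rule) and 4.69% (no doublet-like cells); in Abcg2-MDS/AML to 0.949% (thinned) and 0.483% (stricter rule); in Control to 0.175% (4000 UMIs) and 0.136% (stricter rule). Against Pi16-negative fibroblasts, DESeq2 called 279 higher and 251 lower, thinning 300 and 298, and all other barcodes as reference 1044 lower, while leaving out 1 library gave 233 to 603 higher and 207 to 609 lower. Control had 7 members under the stricter rule and 6 at the 4000 UMI minimum, and was dropped from this fit there. The Abcg2 pair kept Control under both settings, so its values there rest on these few cells. Of the genes, Gas6 (0.14), Cd44 (0.42), Col3a1 (0.88) and Prrx2 (0.073) were reversed against all other barcodes. In the NHD13 pair the calls were 23 higher and 32 lower at 50 CPM, 166 and 269 with no minimum, 104 and 184 when thinned, and 170 lower under the stricter rule. Ifit1 was reversed at 4000 UMIs (1.62) and without its top cell (0.41). In the Abcg2 pair the calls were 402 and 269 with TMM scaling, 86 and 302 under the stricter rule, 90 and 323 when thinned, and 267 lower without the top cell. Thbs4 (1.52, no doublet-like cells, with no Control UMI left and an interval that takes in a ratio of 1) and Dpp4 (0.21, stricter rule) were reversed. The joint fit called 17 higher and 18 lower with no filter on low counts and 3 lower with no replicate block. It called 0 lower without doublet-like cells and 0 without cells with blood genes. Each group had 1 library, so that block is the model with its own control. The cause of these changes was not tested. The depth of 69103 UMIs in Control members limits the Abcg2 pair.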
